A study of Homo sapiens with 6 samples.

Results

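The genes described here are the SR and hnRNP splicing factors of A549 cells, with the TRA2 and polypyrimidine tract binding (PTBP) proteins that act beside them. They were taken by symbol from the deposited table of gene counts: symbols of the SRSF, HNRNP, TRA2 and PTBP families, less those that end in a digit, a P and digits. Of 165 rows with such symbols 95 were dropped by that ending, which left 70 members of 57773 rows. Of the 70, 30 are hnRNP pseudogenes by name that the rule kept, because a letter stands before their P (HNRNPCP2, HNRNPKP1 and the like), and 40 are the family genes, with SRSF8 present as 2 rows. The rule itself used no expression value, though the members were chosen with earlier results of these data known. A549 is a human lung adenocarcinoma line labelled as alveolar basal epithelium. Cells were given recombinant human surfactant protein D (rhSP-D), a secreted collectin of the lung, at 10 µg/ml for 48 h (n = 3), or as vehicle (0 µg/ml) an equal volume of the buffer the protein had been eluted in, for 48 h (n = 3). Both groups were grown in the same serum-containing medium, and the labels name no genetic change. Poly(A) RNA was sequenced in 6 libraries.

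SR proteins carry RNA recognition motifs and a tail rich in arginine and serine. They bind exonic enhancers and help recruit the small nuclear ribonucleoproteins (snRNPs) that mark the splice sites, while hnRNP proteins coat nascent transcripts and often act against SR proteins at the same exons. Many of these genes limit their own output by splicing their transcripts into forms that nonsense-mediated decay removes, so a gene-level count sums productive and unproductive transcripts.

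Library totals ranged from 11396193 to 26030880 counts, and of 15848 genes tested 2526 (15.9%) passed an adjusted p under 0.05. Summed epithelial markers were 19913 to 20100 CPM (counts scaled to a common library size) in vehicle and 20459 to 20584 in rhSP-D, carried by KRT7, KRT8, KRT18, AKR1B10 and ALDH1A1, while EPCAM and KRT19 stood at 1.82 and 1.83 CPM in vehicle. Of the 7 alveolar type II markers ABCA3 made up nearly all of the sum (79.2 to 82.2 CPM in vehicle, 75.9 to 77.5 in rhSP-D), and SFTPA1, SFTPB, SFTPC and NKX2-1 were at or near 0. The 6 leukocyte markers summed to 84.7 to 90.6 and 93.0 to 98.4 CPM, nearly all CD68, with PTPRC, CD3E and LYZ at 0 or 1 count in every library. Fibroblast markers summed to 10.5 to 14.8 CPM in vehicle and 13.2 to 14.2 in rhSP-D, and endothelial markers to at most 0.117 CPM. The part of these markers in the members' values was not tested. In bulk RNA, fewer expressing cells and less RNA per cell cannot be told apart.

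The family was abundant. Its counts made up 1.099% ± 0.00178 (SD, n = 3) of each vehicle library, of which the hnRNP genes held 0.829%, the SR genes 0.194%, the PTBP genes 0.0557% and the TRA2 genes 0.0187%. In rhSP-D the members' share was 1.08% ± 0.00646 (SD, n = 3), and all 3 rhSP-D libraries lay below all 3 vehicle libraries. This share is of raw library totals, a scale on which all genes had a median log2 change of -0.05. Per kb of merged exons HNRNPA1 was the most abundant member in vehicle at 248 CPM per kb. HNRNPAB (165), HNRNPA2B1 (117) and HNRNPK (102) came next. The SR genes were led by SRSF2 at 88.9 and SRSF1 at 84.2 CPM per kb, and PTBP1 stood at 65.2. PTBP2, the form typical of neurons, was at 0.716 CPM per kb and SRSF12 at 0.245.

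**Figure D1:**
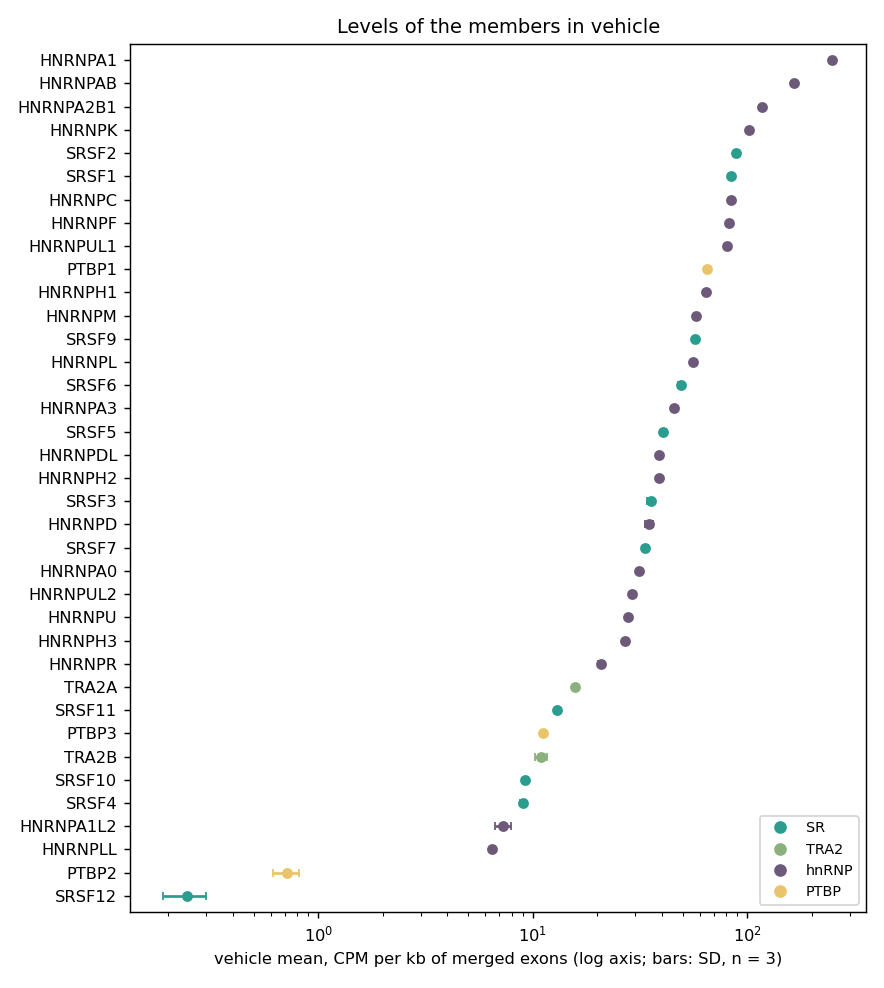
Level of each tested family gene in vehicle, in CPM per kb of merged exons on a log axis, with points for means and bars for SD over 3 libraries, coloured by family. HNRNPA1 at 248 leads, the SR genes drawn other than SRSF12 lie between 9.04 (SRSF4) and 88.9 (SRSF2), and of the genes drawn only PTBP2 and SRSF12 are below 1; the 2 SRSF8 rows have no exon length in GENCODE 29 and are not drawn.

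Enough counts for a test were present for 42 of the 70 members, 39 of the 40 family genes and 3 pseudogenes. The exception among the family genes was HNRNPCL1, a copy of HNRNPC, with 0 counts in all 6 libraries. For reads assigned to it this allows at most 0.117 to 0.260 CPM by library. How the counting handled reads that fit both genes is not given, so its level is uncertain. The other 27 untested members were pseudogenes, and 18 members in all, HNRNPCL1 among them, had 0 counts in every library.

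Treatment with rhSP-D was compared with vehicle to ask which transcripts differ after exposure to the collectin. Within the family 12 of the 42 tested members passed (28.6%, against 15.9% of all genes tested), 8 higher (9.31% of all genes) and 4 lower (6.63% of all genes) in rhSP-D. The family holds mostly high counts, and among all genes of at least 50 CPM 39.2% passed, against 10 of the 33 members at that level, so that the members' share was not above that of equally abundant genes. The 3 pseudogenes among the tested members did not pass, so that 12 of the 39 family genes did (30.8%). Among the members that passed, the SRSF8 rows aside, the largest change was that of SRSF9, which rose by 9.37%. SRSF12, HNRNPA1L2 and PTBP2, all of low count, had larger fitted changes that did not pass (log2 -0.60, -0.17 and -0.16). The median log2 change of the tested members was 0.01, beside -0.01 for all genes. The groups did not overlap for 22 of the 42 (20 of the 39 family genes), against 31.5% of all genes tested. This share was not computed among genes of at least 50 CPM, so the members' share without overlap has no comparison at equal abundance. The direction of the set depended on scaling: by library totals alone 2 members passed as higher and 11 as lower. Among all genes the share of calls that were higher was 58.4%, and 30.4% with library totals alone.

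**Figure D2:**
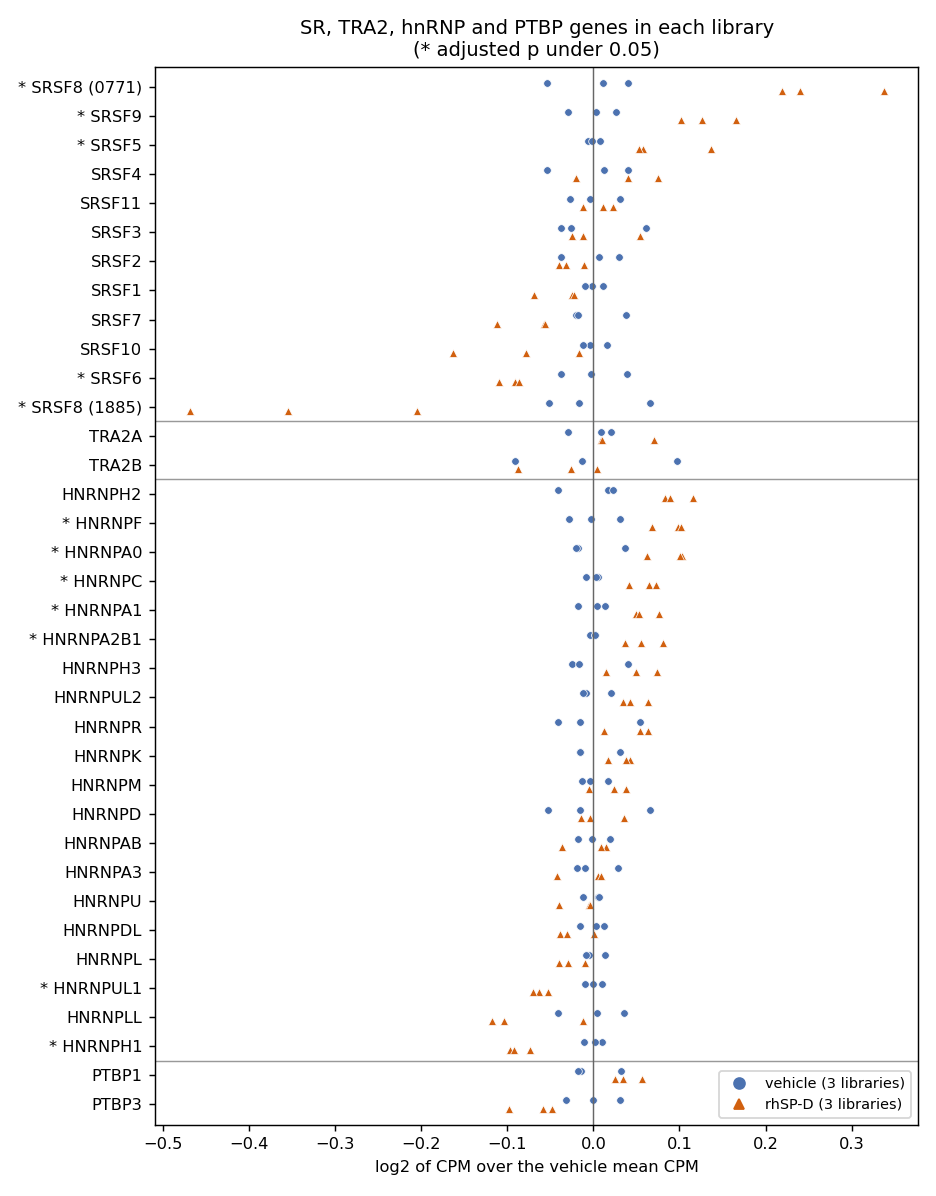
Each point is 1 library's CPM for a member, as log2 over that member's vehicle mean; circles are vehicle and triangles rhSP-D (n = 3 each), an asterisk marks an adjusted p under 0.05, and lines divide SR, TRA2, hnRNP and PTBP genes. The 2 SRSF8 rows, named by the last 4 digits of their identifiers, lie on opposite sides, SRSF9 lies wholly right and HNRNPH1 and SRSF6 wholly left of their vehicle points; pseudogenes and the genes with vehicle means under 15 CPM (PTBP2, HNRNPA1L2, SRSF12) are left out.

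Among the SR genes 3 rows rose, 2 fell and 8 of 13 did not pass. SRSF9 (ENSG00000111786, chr12:120461668-120469793, minus strand) encodes an SR protein closely related to SRSF1. It was measured at 208.8, 217.0 and 213.5 CPM in vehicle and at 232.5, 228.6 and 239.0 CPM in rhSP-D. All 3 treated libraries stood above all 3 controls. The log2 change was 0.13 ± 0.02 (SE), or 9.37% (95% interval 5.62 to 13.3%), with an adjusted p of 0.00037 by edgeR's quasi-likelihood test. Exons of GATC, a gene of the mitochondrial glutaminyl-tRNA amidotransferase on the opposite strand, cover 1729 of the 3744 nt of SRSF9 exon, so reads from this stretch have no clear origin unless the counting used strand. GATC itself stood at a mean of 22.9 CPM with a log2 change of -0.04 ± 0.07 (SE, adjusted p = 0.723). SRSF1, an enhancer-binding protein and the best studied of the family, did not pass: its CPM were 280.9, 279.3 and 283.3 in vehicle and 268.1, 276.4 and 276.9 in rhSP-D. The treated values lay below the controls without overlap, at a log2 change of -0.04 ± 0.02 (SE, adjusted p = 0.255 by edgeR). SRSF1 shares 1890 of its 3340 exonic nt with AC015813.2 on the same strand, and 440 nt lie opposite exons of AC015813.5. How the counting assigned reads from these stretches was not determined.

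SRSF4, SRSF5 and SRSF6 form a subfamily with a pair of RNA recognition motifs and long arginine-serine tails, and they did not move together. SRSF5 (ENSG00000100650, chr14:69726900-69772005, plus strand) was at 217.6, 215.4 and 216.2 CPM in vehicle and 225.2, 224.5 and 237.9 CPM in rhSP-D. It rose, with log2 0.08 ± 0.03 (SE, adjusted p = 0.0226 by edgeR), and rhSP-D replicate 3 stood furthest out. With that library left out, its adjusted p was 0.188, and by library totals alone it did not pass (log2 0.04). SRSF6 (ENSG00000124193, chr20:43457928-43464247, plus strand) was at 224.3, 231.0 and 219.0 CPM in vehicle and 208.3, 211.0 and 211.7 CPM in rhSP-D, with no overlap. Its log2 change was -0.10 ± 0.02 (SE, adjusted p = 0.00696 by edgeR), and -0.05 (adjusted p = 0.233) once trends on GC content and length were removed. SRSF4 had a log2 change of 0.04 ± 0.04 (SE, adjusted p = 0.571 by edgeR), and its groups overlapped.

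Promoter windows were available in RefSeq (GRCh38.p14) for 35 members, each with 250 bases before and 50 after the annotated start. In 6 of the 35 windows the upstream 250 bases hold no exon in GENCODE 29. SRSF8 is among these, called only by row and in opposite directions, while its summed counts did not pass. The upstream bases are shown for HNRNPH1, SRSF6 and SRSF8, the symbols among these 6 with a called row. They run 5′ to 3′ on the gene's strand, at chr5:179634785-179635034 (minus), chr20:43457646-43457895 (plus) and chr11:95066627-95066876 (plus). Capitals mark matches to the motifs searched on both strands.
HNRNPH1: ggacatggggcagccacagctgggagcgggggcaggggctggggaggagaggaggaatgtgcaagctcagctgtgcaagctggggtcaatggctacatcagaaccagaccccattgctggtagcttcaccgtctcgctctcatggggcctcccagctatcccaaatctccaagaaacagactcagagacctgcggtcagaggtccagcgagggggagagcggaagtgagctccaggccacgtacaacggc
SRSF6: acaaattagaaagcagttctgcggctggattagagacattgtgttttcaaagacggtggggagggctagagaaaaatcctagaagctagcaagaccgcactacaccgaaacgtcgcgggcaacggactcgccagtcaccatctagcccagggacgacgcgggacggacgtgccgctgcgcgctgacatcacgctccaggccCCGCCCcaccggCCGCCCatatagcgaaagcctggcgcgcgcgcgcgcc
SRSF8: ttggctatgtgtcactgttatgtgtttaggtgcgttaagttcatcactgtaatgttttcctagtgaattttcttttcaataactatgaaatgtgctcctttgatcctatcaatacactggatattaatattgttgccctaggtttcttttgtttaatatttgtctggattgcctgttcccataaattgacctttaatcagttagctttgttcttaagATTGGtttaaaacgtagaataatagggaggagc
The letters in capitals are GC boxes (GGGCGG, read as CCGCCC on the other strand) in SRSF6 and a CCAAT box in SRSF8. None of the motifs searched is in the HNRNPH1 window. Over the full windows the GC box was found in 25 of 35 members (71.4%), against 45.0% of 35116 promoters of the same length. The CCAAT box was found in 16 (45.7%, against 34.6%), the E-box CACGTG in 7 of 35 (against 7.26%), the ETS core CCGGAAG in 5 (14.3%, against 10.3%) and TATAAA in 5 (14.3%, against 11.5%). The cyclic AMP response element TGACGTCA was in 0 of the 35, against 1.85% of all promoters. The members' windows had a median GC content of 65.0%, against 58.7% for all, and CG-rich motifs are more frequent in GC-rich windows. The matches describe letters in a window and were not measured as binding.

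SRSF8, a relative of SRSF2, gave the largest opposite changes, but in rows that share a symbol. The row ENSG00000180771 was at 21.37, 22.36 and 22.82 CPM in vehicle and 25.81, 28.03 and 26.20 CPM in rhSP-D, a log2 change of 0.26 ± 0.06 (SE, adjusted p = 0.00412 by edgeR). The row ENSG00000271885 was at 18.950, 20.076 and 18.496 CPM in vehicle and 16.636, 14.996 and 13.853 CPM in rhSP-D, a log2 change of -0.33 ± 0.08 (SE, adjusted p = 0.00386 by edgeR). Neither row overlapped between groups, and their sum did not differ beyond its spread. Summed, SRSF8 was at 41.4 ± 1.06 CPM (SD, n = 3) in vehicle and 41.8 ± 1.58 in rhSP-D, with a log2 change of 0.01 (95% interval -0.08 to 0.11, adjusted p = 0.896). The first row held 53.6% ± 1.39 (SD, n = 3) of the summed counts in vehicle and 63.8% ± 2.58 in rhSP-D. Both identifiers are absent from GENCODE 29, so which transcripts each row counts was not determined. Counted as 1 gene, SRSF8 did not pass, and 10 members did.

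**Figure D3:**
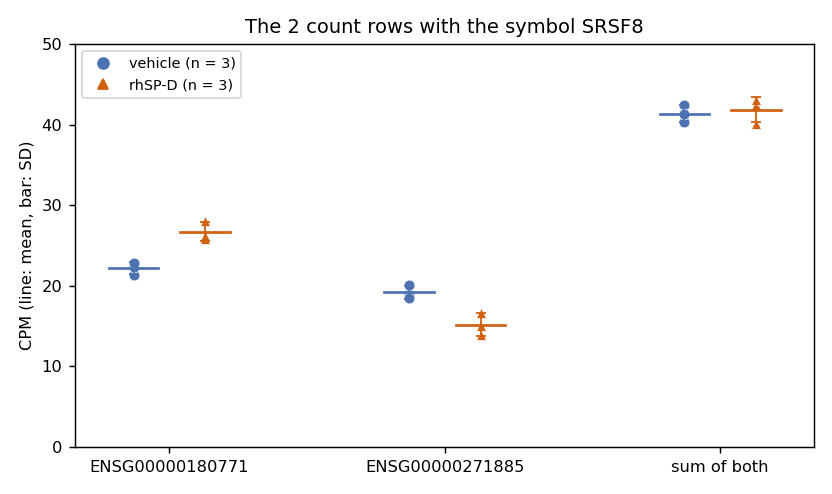
CPM of the 2 rows named SRSF8 and of their sum in each library (points), with group means (lines) and SD (bars, n = 3). The row ENSG00000180771 is higher and ENSG00000271885 lower in rhSP-D without overlap, while the sums, 41.4 and 41.8 CPM on average, overlap.

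Of the remaining SR genes several lay lower without passing. SRSF7, which acts in both splicing and mRNA export, was at 133.8, 139.2 and 134.0 CPM in vehicle and 130.4, 130.5 and 125.6 CPM in rhSP-D. The groups did not overlap, at a log2 change of -0.08 ± 0.03 (SE, adjusted p = 0.0797 by edgeR). SRSF10, known as a splicing repressor when dephosphorylated, went from 95.88, 94.52 and 94.02 CPM to 84.71, 89.81 and 93.71 CPM, also without overlap. Its log2 change was -0.09 ± 0.04 (SE, adjusted p = 0.108 by edgeR), and its adjusted p was 0.0317 without rhSP-D replicate 3, its highest treated library. SRSF2 (log2 -0.03), SRSF3 (0.01) and SRSF11 (0.01) had overlapping groups and adjusted p-values of 0.437, 0.870 and 0.865. SRSF12 was at 0.491 to 1.38 CPM across the 6 libraries, a level at which a change of this family's size was not detectable. TRA2A and TRA2B, the human counterparts of fly Transformer-2 and binders of GA-rich enhancers, passed neither edgeR's nor the DESeq2 test, and 0 of the 2 had an unadjusted p under 0.05. They had log2 changes of 0.03 ± 0.04 and -0.04 ± 0.04 (SE) and adjusted p-values of 0.699 and 0.550 by edgeR.

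Among the hnRNP genes 5 rose, 2 fell and 14 of 21 did not pass. In the A/B group, whose proteins carry paired RNA recognition motifs and a glycine-rich tail, 3 rose. HNRNPA1 (ENSG00000135486, chr12:54280193-54287088, plus strand), the classic antagonist of SRSF1 at splice sites, was at 1248, 1268 and 1276 CPM in vehicle and 1308, 1311 and 1332 CPM in rhSP-D. HNRNPA2B1 (ENSG00000122566, chr7:26173057-26201529, minus strand), which also sorts RNAs for transport, was at 1077, 1082 and 1082 CPM in vehicle and 1108, 1122 and 1142 CPM in rhSP-D. The groups did not overlap for either gene, and the sizes were alike, with log2 changes of 0.06 ± 0.02 (SE, adjusted p = 0.00956 and 0.0138 by edgeR). HNRNPA0 (ENSG00000177733, chr5:137745651-137754376, minus strand), a gene with 1 exon whose protein binds AU-rich messages, was at 269.6, 269.3 and 280.2 CPM in vehicle and 293.3, 285.0 and 292.8 CPM in rhSP-D. It rose without overlap, with log2 0.09 ± 0.02 (SE, adjusted p = 0.0079 by edgeR). HNRNPA3 and HNRNPAB showed no such shift: their log2 changes were -0.01 ± 0.02 and -0.0044 ± 0.02 (SE), with adjusted p-values of 0.802 and 0.927 and 95% intervals of -3.97 to 2.50% and -3.25 to 2.74%.

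HNRNPC (ENSG00000092199, chr14:21209136-21269494, minus strand), which binds uridine tracts and packages nascent transcripts, was at 613.6, 612.3 and 607.8 CPM in vehicle and 629.2, 639.4 and 642.8 CPM in rhSP-D. It rose by a log2 of 0.06 ± 0.02 (SE, adjusted p = 0.0190 by edgeR), with no overlap. The rises of HNRNPA1, HNRNPA2B1, HNRNPA0, HNRNPC, HNRNPF and SRSF5 all missed the threshold when libraries were scaled by their totals alone, at log2 changes between 0.02 and 0.05. They passed with larger changes, except HNRNPF (0.08), once GC and length trends were removed (log2 0.17 for HNRNPA0, 0.15 for HNRNPA2B1, 0.14 for HNRNPC and SRSF5, 0.10 for HNRNPA1).

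The F/H group, which binds runs of G, split by direction. HNRNPF (ENSG00000169813, chr10:43385617-43409166, minus strand) was at 266.3, 272.5 and 261.5 CPM in vehicle and 285.5, 286.3 and 279.8 CPM in rhSP-D. HNRNPH1 (ENSG00000169045, chr5:179614178-179634784, minus strand) was at 610.8, 607.5 and 602.0 CPM in vehicle and 567.6, 569.0 and 576.7 CPM in rhSP-D. HNRNPF stood higher and HNRNPH1 lower in all 3 treated libraries, with log2 changes of 0.09 ± 0.02 (SE, adjusted p = 0.00601) and -0.09 ± 0.02 (SE, adjusted p = 0.000842 by edgeR). The fall of HNRNPH1 held under every scaling by library size and with each library left out (adjusted p at most 0.00858), but not with GC and length trends removed, where its log2 change was 0.01 (adjusted p = 0.751). HNRNPH2, an X-linked close copy of HNRNPH1, was at 83.93, 87.39 and 87.71 CPM in vehicle and 93.57, 91.44 and 91.85 CPM in rhSP-D. Its groups did not overlap, at a log2 change of 0.09 ± 0.03 (SE, adjusted p = 0.0563 by edgeR). Reads that fit both HNRNPH1 and HNRNPH2 could be split between them by the counting. HNRNPH3 did not pass (log2 0.05 ± 0.03, SE, adjusted p = 0.315), and its groups overlapped.

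HNRNPUL1 (ENSG00000105323, chr19:41262496-41307598, plus strand), a relative of HNRNPU with a role in the DNA damage response, was at 525.2, 521.7 and 529.2 CPM in vehicle and 503.0, 506.6 and 500.3 CPM in rhSP-D. It fell, without overlap, by 0.06 ± 0.02 on the log2 scale (SE, adjusted p = 0.0185 by edgeR). TGFB1, on the opposite strand, shares 215 of its 6543 exonic nt and had a log2 change of 0.13 ± 0.03 (SE, adjusted p = 0.00262), in the other direction. HNRNPUL2 had a log2 change of 0.05 ± 0.03 (SE, adjusted p = 0.271), its treated values of 161.1 to 164.3 CPM lying above controls of 156.0 to 159.5. It shares 2391 of its 5416 exonic nt with HNRNPUL2-BSCL2 on the same strand, which fell (log2 -0.13 ± 0.04, SE, adjusted p = 0.00995 by edgeR). How the counting assigned reads from this stretch was not determined. HNRNPU itself, a nuclear scaffold protein, overlapped between groups (log2 -0.02 ± 0.02, SE, adjusted p = 0.597) and stood at 0.10 ± 0.02 (SE, adjusted p = 3.68e-05) once GC and length trends were removed.

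The other hnRNP genes did not pass. They were HNRNPK, a binder of C-rich RNA (log2 0.03), HNRNPL, a binder of CA repeats (-0.03), its relative HNRNPLL (-0.08), HNRNPM (0.02), HNRNPR (0.04), HNRNPD, which binds AU-rich elements (0.01), HNRNPDL (-0.02) and the HNRNPA1 copy HNRNPA1L2 (-0.17). Their adjusted p-values ran from 0.299 for HNRNPK to 0.822 for HNRNPD, and the groups overlapped for all but HNRNPL. HNRNPA1L2, at 7.93 to 10.5 CPM, has 1 coding exon and shares most of its sequence with HNRNPA1, so its value is uncertain.

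None of the 3 PTBP genes passed edgeR's test or the DESeq2 test, and 1, PTBP1, had an unadjusted p under 0.05 by edgeR. PTBP1, which represses exons next to pyrimidine tracts, was at 459.0, 444.5 and 443.4 CPM in vehicle and 466.8, 460.0 and 456.8 CPM in rhSP-D, overlapping at log2 0.04 ± 0.02 (SE, adjusted p = 0.174). PTBP3 was at 93.80, 89.78 and 91.73 CPM in vehicle and 85.72, 88.12 and 88.74 CPM in rhSP-D. Its treated values lay below the controls, at a log2 change of -0.07 ± 0.03 (SE, adjusted p = 0.191). PTBP2 stood at 7.42 to 10.7 CPM with a log2 change of -0.16 ± 0.11 (SE, adjusted p = 0.390).

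**Figure D4:**
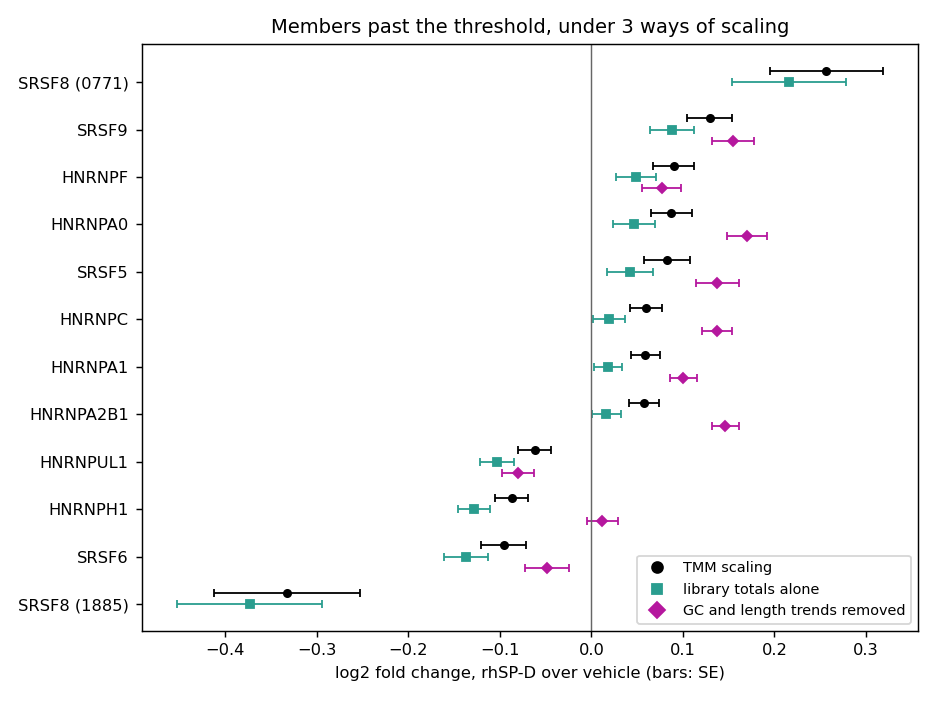
log2 change (rhSP-D over vehicle, bars: SE, n = 3 per group) of the 12 members called, under TMM scaling, under library totals alone and with GC and length trends removed; the SRSF8 rows are not in the last fit. Library totals move all points left and the trend correction moves most of them right; HNRNPH1 goes from -0.09 to 0.01 under the correction, while SRSF9 stays between 0.09 and 0.16 and HNRNPUL1 between -0.10 and -0.06.

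Removing GC and length trends kept 40 members in the fit and called 17, 15 higher and 2 lower, where 9.93% of all genes passed. The share among genes of at least 50 CPM, where 33 members stand, was 39.2% under TMM scaling. It was not computed for the other settings given here, so the members' share under them has no comparison at equal abundance. The members' transcripts have a median GC content of 41.1%, against 48.7% for tested protein-coding genes. Of the 10 called members in that fit 8 passed in the same direction, HNRNPH1 and SRSF6 did not, and SRSF3, SRSF4, SRSF11, HNRNPD, HNRNPH3, HNRNPK, HNRNPR and HNRNPU passed as higher and HNRNPAB as lower. By library totals, where 17.8% of all genes passed, 6 of the 12 calls held, and SRSF1, SRSF2, SRSF7, SRSF10, HNRNPL, HNRNPU and PTBP3 passed as lower. SRSF9 rose and HNRNPUL1 fell under all 3 of these scalings, with adjusted p-values of at most 0.011 for SRSF9 and 0.0185 for HNRNPUL1. The DESeq2 test called the same 12 members (7.1% of all genes called). Without the filter on low counts 11 of the 12 passed (9.41% of all genes), and a replicate block with the trend correction called 16 of 40 members (8.89% of all genes). Against a minimum change of 5%, a test chosen after seeing the data, SRSF9 (adjusted p = 0.0410) and both SRSF8 rows passed, with 7.42% of all genes.

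With each of the 6 libraries left out in turn, SRSF9, HNRNPH1 and both SRSF8 rows passed every time, and the other 8 calls each depended on a library. SRSF5 missed the threshold without vehicle replicate 2 (adjusted p = 0.0554), vehicle replicate 3 (0.0769) or rhSP-D replicate 3 (0.188), and SRSF6 without vehicle replicate 2 (0.0740). HNRNPA1 missed it without vehicle replicate 1 (0.0593) or rhSP-D replicate 3 (0.0596), HNRNPA2B1 without rhSP-D replicate 3 (0.0964) and HNRNPA0 without rhSP-D replicate 1 (0.0551). HNRNPC missed it without vehicle replicate 3 (0.0864), rhSP-D replicate 2 (0.0681) or rhSP-D replicate 3 (0.0849), and HNRNPF without vehicle replicate 3 (0.0660). HNRNPUL1 missed it without vehicle replicate 3 (0.0960), rhSP-D replicate 1 (0.0579) or rhSP-D replicate 3 (0.0549). All of these kept their direction. Among all genes 10.4 to 13.5% passed with a library left out.

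Count ratios between related members within a library do not depend on the library size used, but a correction for GC content and length shifts them. The 17 pairs were chosen after the changes were seen, so their ratios are a description. The count ratio of HNRNPF to HNRNPH1 was 0.436, 0.449 and 0.434 in vehicle and 0.503, 0.503 and 0.485 in rhSP-D, a difference of 13.0%, which was 4.60% with GC and length trends removed. The ratio of SRSF5 to SRSF6 was 0.970, 0.932 and 0.987 in vehicle and 1.08, 1.06 and 1.12 in rhSP-D, a difference of 13.1% (13.7% with the trends removed). SRSF6 had more counts than SRSF5 in all 3 controls, and SRSF5 had more than SRSF6 in all 3 treated libraries. These counts are not corrected for exon length. Per kb of merged exons SRSF6 stood above SRSF5 in both groups, at 48.9 against 40.4 CPM per kb in vehicle and 45.8 against 42.8 in rhSP-D. SRSF9 to SRSF1 went from a mean of 0.758 ± 0.0172 to 0.853 ± 0.0219 (SD, n = 3), or 12.5% higher (12.8% with the trends removed). Both genes share exon bases with other genes, SRSF9 with GATC and SRSF1 with AC015813.2 and AC015813.5, so this ratio is uncertain. HNRNPUL2 to HNRNPUL1 was 7.79% higher, and 8.54% with the trends removed. The exon bases that HNRNPUL2 shares with HNRNPUL2-BSCL2 leave its count, and so this ratio, uncertain. PTBP1 to PTBP3 was 7.71% higher in counts and differed by -0.813% with the trends removed. HNRNPA1 to HNRNPA2B1, the most abundant pair, was 1.17 in both groups (SD 0.0104 and 0.0076), and its difference was -3.16% with the trends removed.

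**Figure D5:**
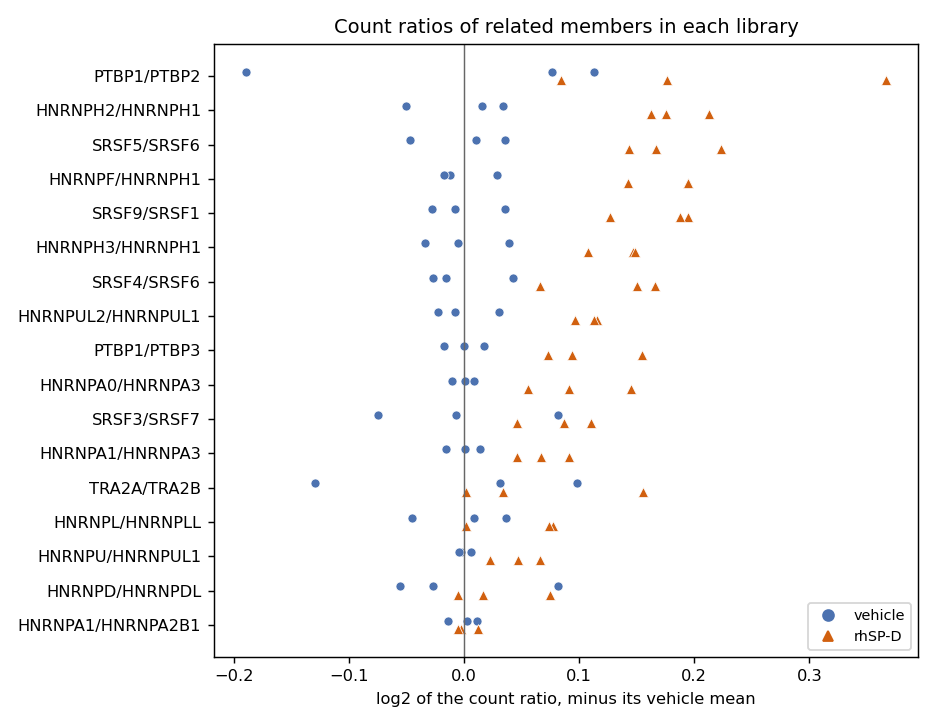
log2 count ratio, without correction for GC content or length, of 17 pairs of related members in each library, minus the pair's vehicle mean (circles vehicle, triangles rhSP-D, n = 3 each). The treated values of HNRNPF/HNRNPH1, SRSF5/SRSF6 and SRSF9/SRSF1 lie wholly right of the vehicle values (means 13.0%, 13.1% and 12.5% higher), while those of HNRNPA1/HNRNPA2B1 overlap around 0.

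The members share features that the symbol rule did not use. In GENCODE 29, 27 of the 37 tested family genes listed there (73.0%) have a transcript annotated as a target of nonsense-mediated decay, against 42.6% of 13241 tested protein-coding genes. These are all 11 SR genes, both TRA2 genes, 13 of 21 hnRNP genes and 1 of 3 PTBP genes. A retained-intron transcript is annotated for 26 (70.3%, against 57.1%). The members have a median of 11 annotated transcripts, against 7, so more of them could fall in any class. Among the 33 members of at least 50 CPM the log2 change had a Pearson r of 0.09 with transcript GC and -0.22 with log2 exonic length, across genes, which share libraries and are not replicates. Exons of 12 of the 37 lie opposite another gene's exons, and 10 share exon bases with a gene of the same strand. SRSF2 is an example: MFSD11 on the other strand covers 1106 of its 3017 exonic nt and had a log2 change of 0.26 ± 0.07 (SE, adjusted p = 0.0119).

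The genes that work with the family were read from 5 lists, whose median levels ran from 45.3 to 166.8 CPM. Of 41 core spliceosome genes 12 rose and 3 fell (36.6% called, median log2 0.05), beside 15.9% of all genes tested and 39.2% of genes of at least 50 CPM. SNRPB and SNRPD2, Sm proteins of the snRNP ring, rose by 14.8% and 13.4% (log2 0.20 ± 0.02 and 0.18 ± 0.02, SE, adjusted p = 1.35e-07 and 4.15e-06 by edgeR). SNRNP70, a U1 snRNP protein that SR proteins contact, rose by 9.24% (log2 0.13 ± 0.02, SE, adjusted p = 1.33e-05). All 3 also passed by library totals alone and with GC and length trends removed, where SNRPB, SNRPD2 and SNRNP70 had log2 changes of 0.07, 0.08 and 0.07. The split of the list was 6 higher and 7 lower by library totals and 10 higher and 1 lower with the trends removed. Of 29 SR-related proteins and SR kinases 2 rose and 4 fell (20.7% called, median log2 -0.04). This share stands against 15.9% of all genes and 39.2% of those of at least 50 CPM. SRPK1, a kinase that phosphorylates SR tails and sends them to the nucleus, fell by 13.2% (log2 -0.20 ± 0.04, SE, adjusted p = 0.00161). SCAF11, which joins SR proteins to the spliceosome, fell by 15.7% and SRRM2, a scaffold of nuclear speckles, by 6.02% (log2 -0.25 ± 0.04 and -0.09 ± 0.02, SE, adjusted p = 0.000207 and 0.00161). These 3 falls also passed under both other scalings, with SCAF11 at -0.14 once trends were removed, although the list's median was -0.09 by library totals and 0.03 with trends removed.

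Of 32 hnRNP proteins under other symbols and their partners 7 rose and 2 fell (28.1% called, median log2 -0.0039, and 3 higher and 10 lower by library totals). Among all genes 15.9% were called, and among those of at least 50 CPM 39.2%. RALY, a relative of HNRNPC, rose by 11.2%, PCBP2, a C-rich RNA binder related to HNRNPK, by 6.55%, and YBX1, a cold-shock domain protein, by 6.402% (adjusted p = 0.000140, 0.000460 and 0.000713 by edgeR). RALY and PCBP2 passed under both other scalings and YBX1 under neither (log2 0.05 by library totals, 0.01 with trends removed). Of 34 other splicing regulators 30 could be tested, 3 rose and 2 fell (16.7% called, against 15.9% of all genes, median log2 -0.01, and 3 higher and 8 lower by library totals). RBM42, RBM4 and RBFOX3 rose by 8.99%, 9.88% and 21.2%, and RBM10 and RBFOX2 fell by 8.03% and 7.72% (adjusted p = 0.00119, 0.00265, 0.00759, 0.0220 and 0.0344). RBM42 and RBFOX2 did not pass with trends removed (log2 0.02 and -0.05), and RBM10 then stood at -0.18 in place of -0.12. RBFOX3 is known as a neuronal nuclear protein, and here it stood at 16.8 ± 0.570 CPM (SD, n = 3) in vehicle and 20.2 ± 0.960 in rhSP-D. The 4 genes set as neural markers summed to 31.2 to 36.6 CPM in vehicle and 32.6 to 35.0 in rhSP-D. Of these ELAVL4 had no counts in any library, so the sum rests on SNAP25, SYT1 and ELAVL3, whose separate values are not given here. Of 18 genes of nonsense-mediated decay and the exon junction complex 3 rose and 3 fell (33.3% called, against 15.9% of all genes and 39.2% of those of at least 50 CPM, median log2 0.05, and 0 higher and 4 lower by library totals). The kinase SMG1, which starts decay by phosphorylating UPF1, fell by 14.3%, and RNPS1, a peripheral exon junction protein, rose by 6.26% (log2 -0.22 ± 0.04 and 0.09 ± 0.02, SE, adjusted p = 6.31e-05 and 0.0106). SMG1 also passed under both other scalings, at -0.12 with trends removed, and RNPS1 did not by library totals (adjusted p = 0.191). RNPS1 is counted in this list and among the SR-related proteins. RBM8A, which also rose (log2 0.09 ± 0.03, SE, adjusted p = 0.0307 by edgeR), is counted in this list and among the hnRNP partners.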

How the data were processed

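Poly(A) RNA of A549 cells was sequenced as paired-end libraries in 6 samples, grouped by their titles. The tools named are cutadapt, STAR 2.7.0a and featureCounts 2.0.0, and the build is GRCh38 (hg38), per the submitters' processing notes. The sources used here do not give the release of the gene models, the strand option or the handling of multi-mapping reads. Raw whole-number counts for each gene are what the authors deposited. From these counts CPM were computed on TMM-scaled library sizes. The test of rhSP-D against vehicle was edgeR's robust quasi-likelihood test (version 4.0.16, R 4.3.3), two-sided, after filterByExpr (minimum count 10, minimum total 15). Its p-values were adjusted by Benjamini-Hochberg over the 15848 genes kept. "Rose", "fell" and "called" stand for an adjusted p under 0.05. The SE is the log2 change over the root of the F statistic, and intervals are 95%. Neither intervals nor floors of 3 counts hold more than the counting error and the spread of the fit. Separate cultures are not named for the replicates, so the spread that the p-values rest on may be technical. Pairs of libraries differed by a chi-square of 1.90 to 2.13 per degree of freedom within groups, so none was a copy of another.

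The members and lists were chosen with earlier results of these data known. Every called member is named, as are the 3 called genes of smallest p in each pathway list, and all where at most 5 were called. Some genes that met this rule are left out of the text. Coordinates, exon lengths, GC content and transcript classes are from GENCODE 29 (GRCh38), which holds 68 of the 70 members. SF3B6 and PECAM1 were not matched among the list genes. Alternatives were scaling by DESeq2 size factors or by library totals, testing without the low-count filter, the DESeq2 1.42.0 test, a replicate block, offsets for GC content and length (splines with 5 degrees of freedom, centred in each library) without and with the block, each library left out, and an adjusted p under 0.01. Summing the SRSF8 rows and a minimum change of 5% were added after seeing the data. The procedure was tested on simulated data, where the limits set on recovery and on false calls were not applied to changes of 5%. Most member calls are of about this size, so the simulation sets no limit for them.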

Additional observations from a re-analysis of the deposited data

How the results depend on the processing

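Of the 12 member calls all 12 held with DESeq2 size factors, with the DESeq2 test and with a replicate block. No label says that the replicate numbers pair the samples. Correlations of same-numbered deviations were -0.08, -0.07 and 0.03, beside -0.06 to 0.13 for different numbers. With 3 libraries in each group these values cannot decide whether samples were paired. The block changed no member call and gave 2319 calls among all genes in place of 2526. Library totals alone gave 2 members higher and 11 lower, a members' median of -0.0310, 856 genes higher and 1961 lower in all, and 11 other splicing regulators called. GC and length offsets gave 15 members higher and 2 lower, a median of 0.0311, and 1524 genes called (971 higher, 553 lower), from 15347 genes; with the replicate block as well these were 14, 2, 0.0318 and 1365 (901 higher, 464 lower), with 3 other splicing regulators. Under these 2 settings HNRNPH1 stood at 0.0120 and 0.0117 and HNRNPU at 0.103 and 0.104. The cause was not tested. At an adjusted p under 0.01 there were 5 members higher and 3 lower, 1465 genes called (939 higher, 526 lower), 9 core spliceosome genes, 3 other regulators and 2 of nonsense-mediated decay. A minimum change of 5% left 3 members, 2 higher and 1 lower. The DESeq2 test, which also kept members of low count, gave a median of 0.0045. No filter on low counts lost HNRNPUL1.

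With each library left out, members called ran from 8 to 11 (4 to 7 higher, 3 to 4 lower) and their median from -0.0029 to 0.0248. Counts over all genes ran from 1678 to 2182 (1042 to 1336 higher, 636 to 892 lower), lowest without rhSP-D replicate 1, the deepest library. The lists ran from 8 to 14 core spliceosome genes, 5 to 9 hnRNP partners, 2 to 4 other regulators and 3 to 6 of nonsense-mediated decay, lowest without rhSP-D replicate 3 for the first, without vehicle replicate 3 for the next pair, and without either of these or vehicle replicate 2 for the last. Calls of members as higher were 4 without rhSP-D replicate 3 and 5 without vehicle replicate 3. Depth limits the pseudogenes, HNRNPA1L2, SRSF12 and PTBP2, for which changes of a few percent were not detectable.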

Other observations

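Of the pseudogene rows named for hnRNP genes, 3 are among the 42 tested members counted above, and 2 of these 3 did not overlap between the groups. The 75 rows named as HNRNPA1 pseudogenes held 347, 501 and 518 counts in the vehicle libraries and 753, 513 and 561 in the treated ones, which is 2.21% ± 0.194 (SD, n = 3) and 2.17% ± 0.0726 of the counts of HNRNPA1. HNRNPA1P33 and HNRNPA1P48 were the most abundant of them. The 10 HNRNPC pseudogene rows held 1.94% ± 0.0801 and 1.99% ± 0.0596 of the counts of HNRNPC, led by HNRNPCP2 and HNRNPCP1. The proportions to the parent gene overlapped between the groups for both. HNRNPCP2 was tested at a log2 change of 0.11 ± 0.09 (SE, adjusted p = 0.471 by edgeR), beside 0.06 for HNRNPC. The other pseudogenes among the members with enough counts were HNRNPKP1 (log2 0.05 ± 0.48, adjusted p = 0.966) and HNRNPLP2 (-0.58 ± 0.44, adjusted p = 0.423), both under 1 CPM. Of the 95 pseudogene rows that the symbol rule dropped, 46 had 0 counts in all 6 libraries.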
